A study of Mus musculus with 2 samples.

Results

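The 10 genes described here were grouped around trefoil factors, mucins and goblet cells. They are the trefoil factors Tff1, Tff2 and Tff3, the mucins Muc2 and Muc3, the mucus protein Fcgbp and the goblet-cell genes Spink4 and Agr2. The transcription factor Spdef and the gastrokine Gkn3 complete the group. The genes were taken by symbol, and all 10 were found among the 27514 genes listed in the tables of both libraries. Goblet cells of the gut secrete a gel built on the mucin Muc2, together with trefoil peptides, which are small cysteine-rich proteins that protect and help to repair the mucosal surface. In the normal intestine Tff3 belongs to goblet cells, while Tff1 and Tff2 are known mainly from mucous cells of the stomach, and Tff2 also from the duodenal glands. Goblet and Paneth cells share the secretory progenitors that depend on the transcription factor Atoh1.

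The genes were followed in adenoma organoids, which are 3-dimensional cultures of tumour epithelium, from the intestine of C57BL/6 mice of genotype ApcMin/+ aged 17 weeks. Apc restrains Wnt/β-catenin signalling, and both groups carried the Min allele. The RSPO1-Fc group was cultured with R-spondin 1, a secreted enhancer of Wnt signals, joined to the Fc part of an antibody, at 10 µg/ml by the treatment protocol, although a sample label gives the same number in milligrams; the control group was cultured without it. Each group was 1 droplet library, and the number of mice or cultures behind a library is not given in the sources used here. Differences between the groups therefore lack any check by replicates, and none was tested.

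Epithelial cells were barcodes above a UMI limit set for each library, with at least 5 UMIs of the epithelial adhesion gene Epcam; a UMI, or unique molecular identifier, stands for 1 captured RNA molecule. This gave 2751 of 2767 RSPO1-Fc cells, holding 5967 to 93149 UMIs each (median 23548), and 1881 of 2269 control cells, holding 9819 to 165115 UMIs each (median 27736). Levels are UMIs summed over these cells and scaled to CPM, which is counts per 1000000 UMIs. Intervals are 95% intervals that cover counting error only. Because 1 UMI is counted per transcript end, a level does not grow with transcript length.

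The libraries stood apart in ways that the labels do not name. Xist, the RNA that coats the inactive X chromosome of female cells, had 3 UMIs in RSPO1-Fc and 100820 UMIs in control epithelial cells, whereas the Y-linked genes Ddx3y and Eif2s3y had 2366 and 3980 UMIs in RSPO1-Fc cells and 0 UMIs in control cells. Gata4, a factor of the proximal small intestine, was found in 60.3% of RSPO1-Fc cells and 0.0532% of control cells, but Onecut2, also a factor of the proximal small intestine, was found in 88.1% of RSPO1-Fc cells and 82.6% of control cells. The colon enzyme gene Car1 was found in 0.945% of RSPO1-Fc cells and 5.48% of control cells. The control table also lists 6794880 barcodes, against 737280 in the RSPO1-Fc table. In every difference below, the effect of RSPO1-Fc cannot be told apart from that of donor sex, of any difference in gut segment or of how the library was made. The libraries shared 0 cell barcodes. The median mitochondrial share was 3.39% in RSPO1-Fc cells and 6.23% in control cells. The 6 macrophage markers summed to 0.640 CPM in RSPO1-Fc epithelial cells, 3 of them at 0, and to 108 CPM in control epithelial cells, and the 5 fibroblast markers summed to 0.925 CPM in RSPO1-Fc cells and 57.4 CPM in control cells; their part in the results was not tested.

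The trefoil factors were higher with RSPO1-Fc, and most of the other genes were lower. Of the 8 genes with at least 20 CPM in either library, 3 were at least 2-fold higher in RSPO1-Fc cells (Tff1, Tff2 and Tff3), 4 were at least 2-fold lower (Muc2, Spink4, Agr2 and Gkn3), and Fcgbp was under 2-fold. Only Tff3 and Agr2 reached that level in both libraries, so these counts describe the genes and are no support for a difference. Across all 6911 genes at this level, 500 genes (7.23%) were at least 2-fold higher and 1289 genes (18.7%) at least 2-fold lower. The median log2 ratio was −0.60 for these 8 genes and −0.18 for all genes, with 1 CPM added to each level. Scaling by TMM, which sets the bulk of genes equal, raised every ratio of CPM, before 1 CPM was added, by 0.34 on the log2 scale. The median over the genes that then reached 20 CPM was 0.21, and 985 genes were higher and 766 lower. The share of differing genes that were higher was 56.3% under TMM and 27.9% under CPM. The 7 calls on the trefoil factors, Muc2, Spink4, Agr2 and Gkn3 held under TMM, and Fcgbp then passed, at 2.29-fold. Muc3 and Spdef stayed under 20 CPM in both libraries.

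**Figure D1:**
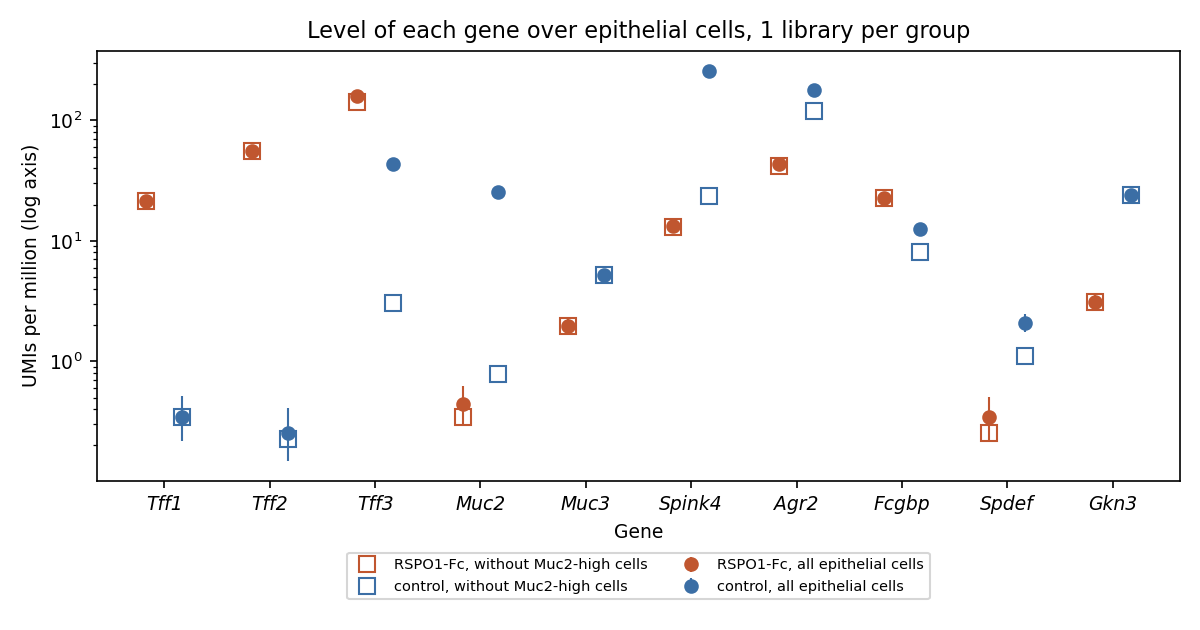
Level of each gene in CPM (log axis) summed over RSPO1-Fc (orange, left of each pair) and control (blue, right) epithelial cells, with 95% Poisson intervals where they exceed the symbol. Open squares leave out the cells with at least 5 Muc2 UMIs: without them Tff3 is at 143 CPM in RSPO1-Fc cells and 3.05 CPM in control cells, and Spink4 is at 13.1 CPM in RSPO1-Fc cells and 23.7 CPM in control cells.

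Tff1, Tff2 and Tff3 lie next to each other on chromosome 17 of GRCm38, all on the minus strand and within 39972 bp. Tff3 spans positions 31125306 to 31129646, Tff2 spans 31141049 to 31144282 and Tff1 spans 31161395 to 31165277. Tff2 had 3907 UMIs in RSPO1-Fc cells (55.6 CPM) and 17 UMIs in control cells (0.254 CPM), which is 219-fold higher with RSPO1-Fc (136 to 376). Tff1 had 1509 UMIs in RSPO1-Fc cells (21.5 CPM) and 23 UMIs in control cells (0.344 CPM), or 62.4-fold higher (41.4 to 98.8). In the control library 14 of the 23 Tff1 UMIs came from 1 cell, and no cell had more than 1 Tff2 UMI. Tff3 had 11099 UMIs in RSPO1-Fc cells (158 CPM) and 2911 UMIs in control cells (43.5 CPM), or 3.63-fold higher (3.48 to 3.78).

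Abcg1, Slc37a1 and Rsph1, the other genes within 200000 bp that reached 1 CPM in either library, were not 2-fold higher with RSPO1-Fc. The lipid transporter gene Abcg1 was at 2.05 CPM in RSPO1-Fc cells and 11.9 CPM in control cells, 5.80-fold lower (4.85 to 6.98). Slc37a1, a sugar-phosphate transporter gene, was at 23.3 CPM in RSPO1-Fc cells and 19.2 CPM in control cells, 1.21-fold higher (1.13 to 1.31). Rsph1 was at 1.18 CPM in RSPO1-Fc cells and 1.00 CPM in control cells. The gene model Gm15318, which overlaps Tff1 on the other strand, had 1 UMI in RSPO1-Fc cells and 0 UMIs in control cells.

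The trefoil factors were spread over many RSPO1-Fc cells and over few control cells. Tff3 was found in 1825 RSPO1-Fc cells (66.3%) and 73 control cells (3.88%), Tff2 in 1387 RSPO1-Fc cells (50.4%) and 17 control cells (0.904%), and Tff1 in 431 RSPO1-Fc cells (15.7%) and 8 control cells (0.425%). With each cell thinned to 5000 UMIs, so that depth was the same, the shares were 27.2% and 1.49% for Tff3, 19.96% and 0.372% for Tff2, and 4.98% and 0.106% for Tff1, RSPO1-Fc and control in each pair. Under the rule used here a gene was broad when at least 50% of thinned cells held a UMI, and rare when under 5% did and the 1% of cells with the most UMIs held at least 50% of them. No gene of the 10 was broad in either library. Tff1, Tff2 and Tff3 were intermediate in RSPO1-Fc cells and rare in control cells. Muc2, Spink4 and Spdef were rare in both libraries, and Agr2 and Fcgbp were intermediate in both. Muc3 was intermediate in RSPO1-Fc cells and rare in control cells, and Gkn3 was rare in RSPO1-Fc cells and intermediate in control cells. The top 1% was 28 RSPO1-Fc or 19 control cells. A gene found in fewer cells than that met the second part of the rule whatever its spread. This was so for Tff1 and Tff2 in control cells and for Muc2 and Spdef in RSPO1-Fc cells. For them rare states only that few cells held a UMI.

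The share of UMIs held by the top cells differed by trefoil factor. In RSPO1-Fc cells the 28 cells with the most Tff3 (the top 1%) held 45.9% of its UMIs, with 1059 UMIs in the highest cell and 662 in the next. For Tff1 the top 28 cells held 45.5% of the UMIs, and for Tff2 they held 14.5%. These sets of top cells overlapped by 5 cells for Tff1 and Tff2. The overlap was 0 cells for Tff1 and Tff3 and 0 cells for Tff2 and Tff3. Each set is 1% of the cells, so an overlap of 0 is near that of unrelated sets and shows no exclusion. Tff1 was at 269 CPM in the top Tff2 cells against 18.3 CPM in the remaining cells. In the top Tff3 cells Tff1 was at 5.92 CPM against 21.7 CPM, and Tff2 at 98.3 CPM against 55.1 CPM. At the level of 1 UMI or more, 214 RSPO1-Fc cells (7.78%) held all 3 factors and 500 cells (18.2%) held none, while 0 control cells held all 3 and 1786 control cells (94.9%) held none. Tff2 was found in 62.6% of the Tff1-positive RSPO1-Fc cells and 48.1% of the Tff1-negative ones, whose median depths were 28374 and 22634 UMIs.

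Free RNA can place UMIs in cells that do not make a transcript. Barcodes with over 100 and up to 500 UMIs, too few for a cell, held Tff3 at 237 CPM in the RSPO1-Fc library and 170 CPM in the control library, Tff2 at 65.7 and 0.28 CPM, and Tff1 at 19.6 and 1.12 CPM. The levels of these barcodes in the RSPO1-Fc library were thus close to, or above, those of its cells. The RSPO1-Fc library held no cell without Epcam, so no cell type that should lack the trefoil factors was there for comparison, and how many of the cells with 1 Tff3 UMI (774 of 1825) make it was not tested. In the control library 144 macrophage-like cells, without Epcam and with a median of 15097 UMIs, held a Tff3 UMI in 1.39% of cells. A Tff1 UMI was found in 1 of them (0.694%, 0.0176 to 3.81), an interval that holds the control share of Tff1 in epithelial cells. Whether that share is background was not tested, and 1 control epithelial cell held 14 Tff1 UMIs, against at most 1 in a macrophage-like cell. Tff2 was found in 0 of these 144 cells, and a count of 0 allows up to 2.08%, above the control share of Tff2 in epithelial cells. After subtraction of the low-barcode profile, at 10.0% of each library's UMIs, the log2 ratios were 4.18 for Tff1, 5.47 for Tff2 and 2.32 for Tff3.

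**Figure D2:**
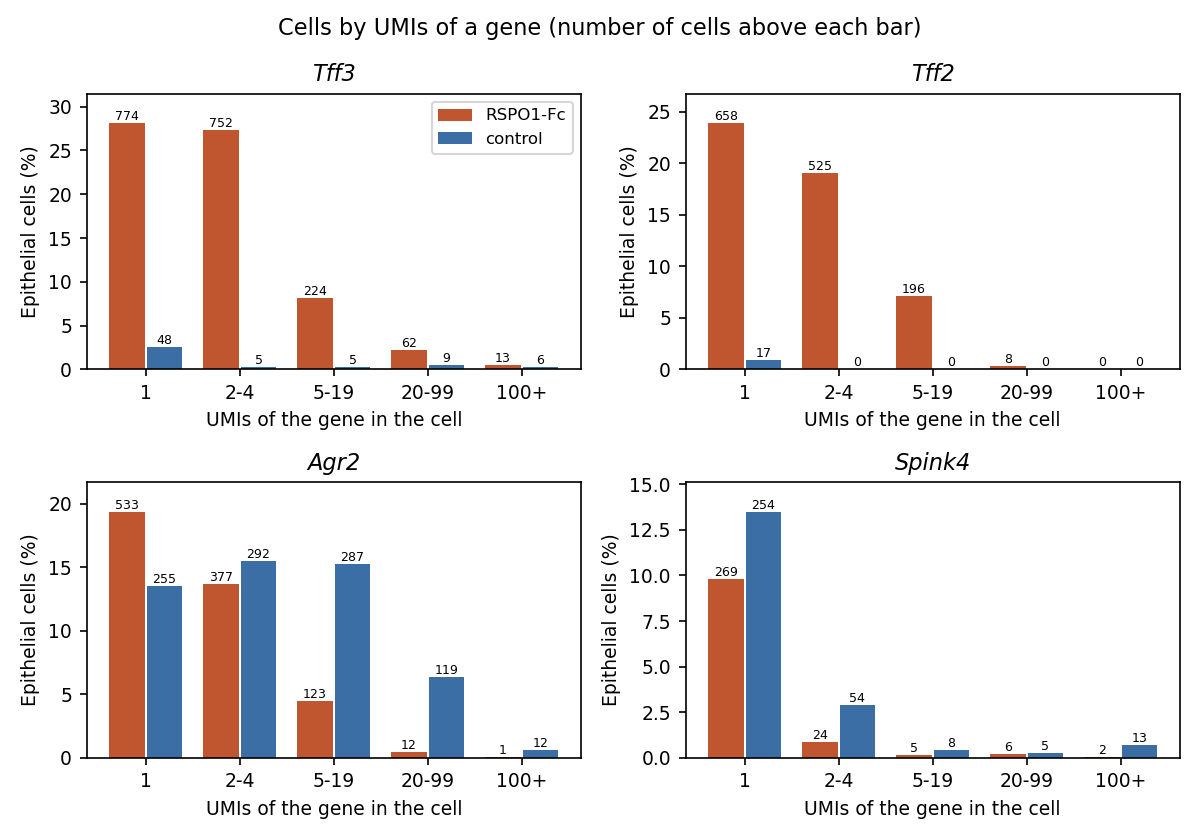
Share of epithelial cells (%, with the number of cells above each bar) by the number of UMIs of Tff3, Tff2, Agr2 and Spink4 per cell, RSPO1-Fc left (orange) and control right (blue) in each pair; cells with 0 UMIs are not drawn. For Tff3 and Tff2 most RSPO1-Fc cells with the gene hold 1 to 4 UMIs, while 6 control cells hold 100 or more Tff3 UMIs.

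Muc2, the gel-forming mucin of goblet cells, was found in few cells. It lies on chromosome 7 at positions 141690340 to 141754693, plus strand. It had 31 UMIs in RSPO1-Fc cells (0.441 CPM) and 1689 UMIs in control cells (25.2 CPM), 57.3-fold lower with RSPO1-Fc (40.2 to 84.5). A UMI was found in 21 RSPO1-Fc cells (0.763%) and 60 control cells (3.19%), beside 3.47% (1.14 to 7.92) of the macrophage-like control cells. The RSPO1-Fc library has no macrophage-like cells for comparison. How many of the single Muc2 UMIs in either library are free RNA was not tested. At least 5 Muc2 UMIs were found in 1 RSPO1-Fc cell (0.0364%, 0.00092 to 0.202) and 14 control cells (0.744%, 0.407 to 1.25), called Muc2-high cells here. At least 20 UMIs were found in 0 RSPO1-Fc cells and 12 control cells. The 14 control cells held 96.9% of the Muc2 UMIs of their library. Without the Muc2-high cells, Muc2 was at 0.342 CPM in RSPO1-Fc cells and 0.786 CPM in control cells, 2.30-fold lower (1.39 to 3.91), both below the 4.86 and 60.6 CPM of the low barcodes of the same libraries.

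The sequences just upstream of 4 of the genes are shown to set the promoter of Muc2 beside those of Spdef and Agr2, which were higher in its cells, and of Gkn3, which was lower there. They run 5′ to 3′ on the gene's strand over 180 bases, from 200 to 21 bases before the RefSeq transcription start (GRCm38.p6), and RefSeq start entries were at hand for 6 of the 10 genes. Capitals mark matches on either strand to the TATA-box letters TATAA, to the E box CAGCTG, which is the kind of site Atoh1 binds, to CCGGAT, an Ets site of the Spdef type, to the forkhead site TGTTTAC, to the GATA-type site AGATAA and its variant TGATAA, and to CTTTGA, the site of the TCF/LEF factors.
Muc2, chr7:141690140-141690319, plus strand: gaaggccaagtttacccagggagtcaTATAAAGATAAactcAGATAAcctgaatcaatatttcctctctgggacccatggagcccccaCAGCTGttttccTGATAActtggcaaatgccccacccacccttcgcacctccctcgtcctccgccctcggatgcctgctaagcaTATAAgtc
Spdef, chr17:27728972-27729151, minus strand: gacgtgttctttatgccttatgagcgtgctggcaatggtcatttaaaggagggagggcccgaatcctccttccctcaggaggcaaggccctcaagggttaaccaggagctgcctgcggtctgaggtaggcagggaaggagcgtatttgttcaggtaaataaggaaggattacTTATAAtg
Agr2, chr12:35992725-35992904, plus strand: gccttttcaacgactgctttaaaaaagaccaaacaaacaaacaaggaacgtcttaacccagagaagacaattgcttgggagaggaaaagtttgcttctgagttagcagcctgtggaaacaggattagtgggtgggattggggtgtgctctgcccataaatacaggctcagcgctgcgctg
Gkn3, chr6:87388956-87389135, minus strand: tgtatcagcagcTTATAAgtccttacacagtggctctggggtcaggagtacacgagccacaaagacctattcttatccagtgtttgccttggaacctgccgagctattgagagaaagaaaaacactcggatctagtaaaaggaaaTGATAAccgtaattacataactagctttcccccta

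Muc2 had TATAA starting 28 bases and 174 bases before its start, CAGCTG at 112 bases, and GATA matches at 169, 159 and 100 bases. The GATA match at 169 bases follows directly on the TATAA match at 174 bases, without overlap, so these letters stand as 1 capital run. Spdef had overlapping TATAA matches on both strands at 28 and 27 bases. Gkn3 had TATAA matches at 188 and 187 bases and TGATAA at 55 bases, and Agr2 had no match. Among 32817 mouse promoter windows of the same length, 17.5% held TATAA, 9.67% CAGCTG, 12.3% a GATA match, 10.1% CTTTGA, 3.62% CCGGAT and 2.24% TGTTTAC. Fcgbp, whose sequence is not printed, was also higher in Muc2-high control cells and had 1 match, TATAA at 28 bases. These matches describe letters only.

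Fcgbp and Muc3 followed Muc2 in part or not at all. Fcgbp, a large protein linked to the Muc2 gel (chromosome 7, 28071236 to 28120862, plus strand), was at 22.9 CPM in RSPO1-Fc cells and 12.6 CPM in control cells, 1.81-fold higher (1.66 to 1.97). It was found in 34.6% of RSPO1-Fc cells and 17.8% of control cells, and in 10.4% and 4.997% after thinning. It was seen in 0 of the 144 macrophage-like control cells. In control cells 1 cell held 225 of the 846 Fcgbp UMIs. Without the Muc2-high cells it was at 22.5 CPM in RSPO1-Fc cells and 8.09 CPM in control cells, 2.78-fold higher (2.51 to 3.07). With all cells thinned to the same depth its log2 ratio was 0.22, against 0.81 unthinned. Muc3, a membrane-bound mucin (chromosome 5, 137134922 to 137149322, minus strand), was at 1.96 CPM in RSPO1-Fc cells and 5.20 CPM in control cells, 2.65-fold lower (2.17 to 3.25). Its level is uncertain because related mucin genes can share its reads. A Muc3 UMI was found in 3.74% of RSPO1-Fc cells and 3.67% of control cells, and the highest cells held 5 and 41 UMIs. Without the top 1% of cells for Muc3, it was at 1.08 CPM in RSPO1-Fc cells and 1.09 CPM in control cells, a comparison added after its values were seen.

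Spink4, a secreted peptide related to protease inhibitors and typical of goblet cells (chromosome 4, 40920052 to 40931395, plus strand), was at 13.3 CPM in RSPO1-Fc cells and 256 CPM in control cells, 19.2-fold lower (18 to 20.6). A UMI was found in 11.1% of RSPO1-Fc cells and 17.8% of control cells, and the control share lies within the interval of the 13.2% (8.13 to 19.8) seen in macrophage-like control cells. Most of the transcript was in few cells: the top 28 RSPO1-Fc cells held 69.4% of the UMIs and the top 19 control cells 97.5%. The highest cell held 196 UMIs in the RSPO1-Fc library and 3874 UMIs, or 12.1% of all UMIs of that cell, in the control library. Without the Muc2-high cells Spink4 was at 13.1 CPM in RSPO1-Fc cells and 23.7 CPM in control cells, 1.81-fold lower (1.67 to 1.97), and so under the 2-fold limit. Low barcodes held it at 61.6 CPM in the RSPO1-Fc library and 489 CPM in the control library.

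Agr2, a protein disulfide isomerase of the endoplasmic reticulum needed to make Muc2 (chromosome 12, 35992907 to 36004087, plus strand), was the most widespread of the 10 genes in the control library. It was found in 38.0% of RSPO1-Fc cells and 51.3% of control cells, and in 14.8% and 24.8% after thinning. Macrophage-like control cells held it in 3.47% of cells. Its level was 43.1 CPM in RSPO1-Fc cells and 177 CPM in control cells, 4.11-fold lower (3.95 to 4.28). Cells with at least 5 Agr2 UMIs numbered 136 in the RSPO1-Fc library and 418 in the control library. Without the Muc2-high cells Agr2 was at 41.5 CPM in RSPO1-Fc cells and 120 CPM in control cells, 2.90-fold lower (2.77 to 3.02).

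Spdef, an Ets-family factor that drives goblet and Paneth cell maturation (chromosome 17, 27714352 to 27728955, minus strand), had 24 UMIs in RSPO1-Fc cells (0.341 CPM) and 139 UMIs in control cells (2.08 CPM), 6.09-fold lower (3.93 to 9.82). A UMI was found in 19 RSPO1-Fc cells and 58 control cells. The RSPO1-Fc cell with the most Spdef, 6 UMIs, was its Muc2-high cell, and each of the other 18 held 1 UMI. In the control library 47.5% of the Spdef UMIs lay in the Muc2-high cells.

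Gkn3, a gastrokine known from the mouse stomach (chromosome 6, 87383256 to 87388935, minus strand), behaved differently. It was at 3.09 CPM in RSPO1-Fc cells and 23.9 CPM in control cells, 7.76-fold lower (6.73 to 8.98), and was found in 4.58% of RSPO1-Fc cells and 17.8% of control cells, against 0 of 144 macrophage-like control cells. After thinning it was found in 5.53% of control cells (4.54 to 6.66), close to the 4.997% of Fcgbp (4.06 to 6.08). At most 57 Gkn3 UMIs were held by 1 control cell. In the control library only 6 of 1602 Gkn3 UMIs lay in Muc2-high cells (7.85 CPM there and 24.1 CPM in the other cells, 3.07-fold lower, 1.41 to 8.39). The 19 top Gkn3 cells of the control library shared 0 cells with those of Muc2, Tff3, Spink4 or Fcgbp and 3 with those of Agr2. Each set is 1% of the cells, so a count of 0 is near that of unrelated sets and shows no exclusion. Gkn3-positive control cells held Cldn2, a pore-forming claudin, at 155 CPM against 70.8 CPM in the remaining cells, 2.19-fold higher. The proliferation gene Mki67 was at 159 CPM there against 78.2 CPM (2.03-fold higher), and the Paneth lysozyme gene Lyz1 at 26.9 CPM against 151 CPM. The stem-cell markers went different ways. Ascl2 was at 42.1 CPM against 23.0 CPM (1.83-fold higher) and Lgr5 at 105 CPM against 77.8 CPM (1.35-fold higher). Smoc2 was at 175 CPM against 180 CPM, Axin2 at 272 CPM against 357 CPM (1.31-fold lower) and Olfm4 at 0.0594 CPM against 0.0799 CPM. In Gkn3-positive RSPO1-Fc cells Cldn2 was at 37.0 CPM against 28.5 CPM, Mki67 at 91.9 CPM against 87.8 CPM and Lyz1 at 84.0 CPM against 95.2 CPM. The median depth of the Gkn3-positive control cells was 41757 UMIs against 25738 UMIs, which raises the chance of finding a UMI.

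**Figure D3:**
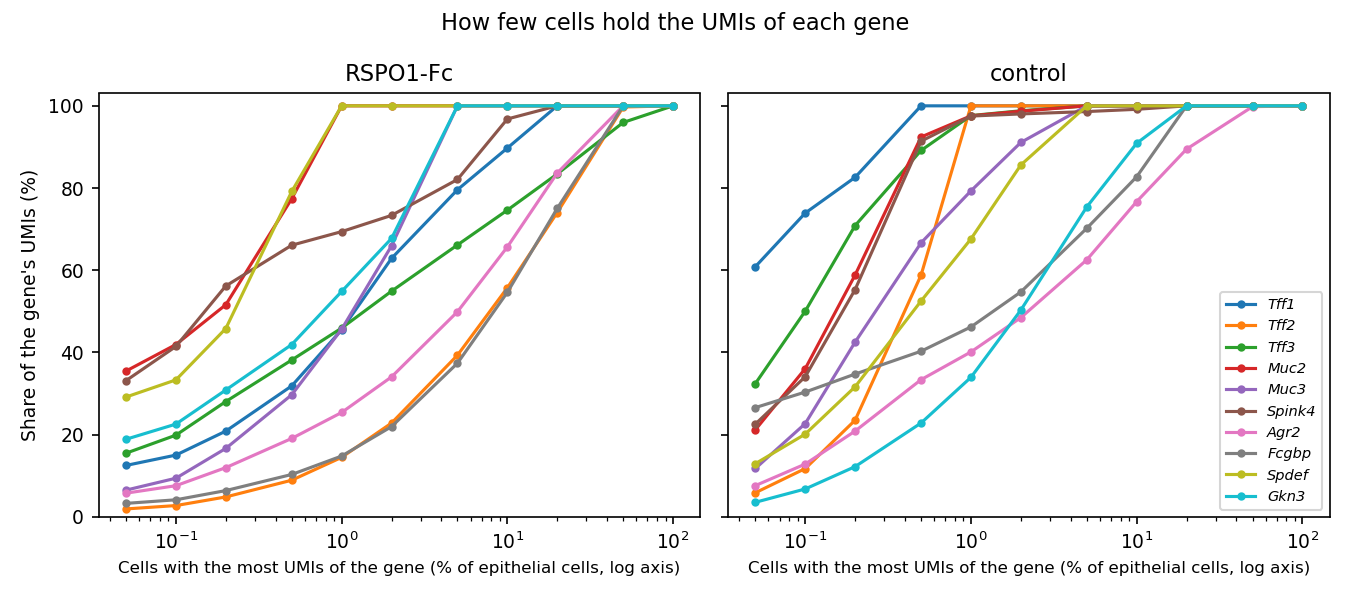
Share of each gene's UMIs (%) held by the cells with the most UMIs of that gene (percent of epithelial cells, log axis), RSPO1-Fc left and control right, 1 line per gene. In control cells the curves of Muc2, Tff3 and Spink4 reach 97.6%, 97.6% and 97.5% at 1% of cells, while Tff3 in RSPO1-Fc cells reaches 45.9%.

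Summed over the 14 Muc2-high control cells, Spink4 and Agr2 were higher than in the other 1867 control cells. Spink4, Agr2 and Gkn3 reached 20 CPM in the other cells, whereas Tff3, Fcgbp and Spdef reached it only in Muc2-high cells and so had to differ. No count over them is therefore given. Across all 6870 genes at this level 172 (2.5%) were at least 4-fold higher and 58 (0.844%) at least 4-fold lower. Spink4 was at 20411 CPM in Muc2-high cells and 23.7 CPM in other control cells, 862-fold higher (819 to 909). Tff3 was at 3546 CPM in Muc2-high cells and 3.05 CPM in other control cells, 1161-fold higher (1006 to 1346). Fcgbp was at 407 CPM in Muc2-high cells and 8.09 CPM in other control cells, and Spdef at 86.4 CPM in Muc2-high cells and 1.10 CPM in other control cells. Agr2 was at 5088 CPM in Muc2-high cells and 120 CPM in other control cells, 42.3-fold higher (40.7 to 44.0). These are cells of 1 library, chosen by their Muc2, and Muc2 itself is no result here.

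The Muc2-high control cells differed among themselves. Tff3 was found in 14 of 14 of them, with 10 to 944 UMIs and a median of 72.5, and in 3.16% of the other control cells. Spink4 was found in 14 of 14 with 2 to 3874 UMIs, and in 17.1% of the other cells, and Agr2 in 14 of 14 with 2 to 902 UMIs, and in 50.9% of the other cells. Macrophage-like control cells held at most 1 Tff3 UMI, 2 Spink4 UMIs and 2 Agr2 UMIs. A cell with 26 Muc2 UMIs held only 2 Spink4 and 3 Agr2 UMIs, and a cell with 13 Muc2 UMIs held 230 Spink4 and 2 Agr2 UMIs, so the counts of 2 are at the level of this background. Spdef was found in 12 of 14 cells with at most 18 UMIs. Fcgbp was found in 8 of 14 cells, and 1 of them held 225 of the 311 UMIs. Muc3 was found in 2 of 14 cells, Tff2 in 2 of 14 and Tff1 in 0 of 14. Together the 10 genes made up 0.109% to 14.1% of the UMIs of a Muc2-high control cell, with a median of 3.46%, and a median of 0.00555% in the other control cells.

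**Figure D4:**
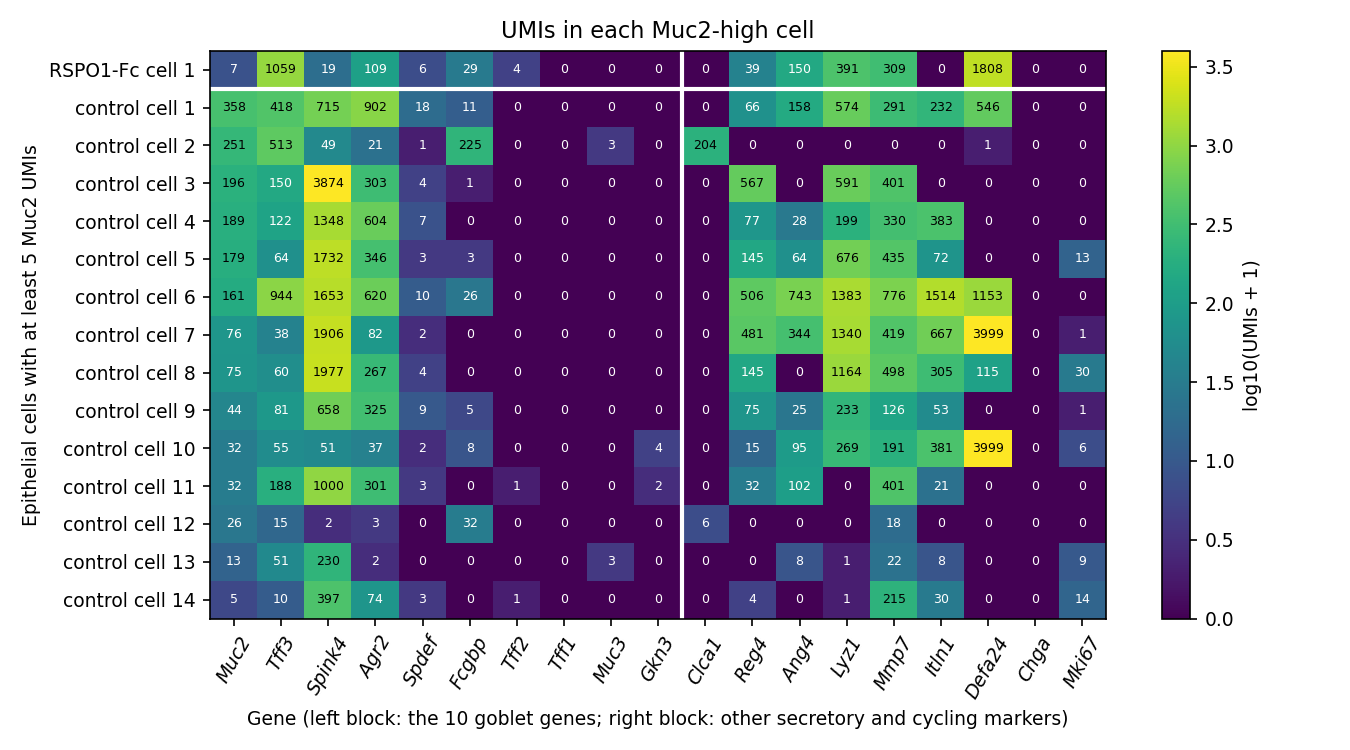
UMIs per cell (number in each square, colour as log10 of UMIs plus 1) in the 1 RSPO1-Fc (top row) and 14 control epithelial cells with at least 5 Muc2 UMIs, for the 10 genes (left block) and for other secretory and cycling markers (right block). Tff3, Spink4 and Agr2 are found in every row, Clca1 in 2 rows, and Mmp7 in all but 1 row.

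The Muc2-high cells also held Paneth-cell genes. Of the 14 control cells, 12 held at least 20 UMIs of the Paneth protease gene Mmp7, 9 held at least 20 UMIs of Lyz1, and 9 reached this for both. Mmp7 was not confined to them, as 1605 of all 1881 control epithelial cells held it. It was at 5397 CPM in Muc2-high cells and 291 CPM in the other control cells. How many other control cells reached 20 UMIs of these genes was not counted. The 6 Paneth markers summed to 35645 CPM in Muc2-high cells and 407 CPM in the other control cells. Of the sum in Muc2-high cells Defa24 gave 12846 CPM, and most of that lay in a pair of cells with 3999 UMIs each, while Defa24 was found in 6 of the 14 cells. Defensin values are uncertain because near-identical copies share reads. The goblet-cell chloride channel regulator Clca1 was found in 2 of the 14 cells, with 204 and 6 UMIs. The cell with 204 Clca1 UMIs held 251 Muc2, 513 Tff3 and 225 Fcgbp UMIs and 0 UMIs of Lyz1, Mmp7 and Ang4. Among the genes with the highest fold in Muc2-high control cells were the antimicrobial ribonuclease Ang4 (2713-fold, 2048 to 3671), Sval1 (2187-fold, 1443 to 3477) and the trypsin inhibitor Spink1 (1212-fold, 871 to 1732). Ang4, Sval1 and Spink1 were at 0.756, 0.348 and 0.575 CPM in the other control cells. They entered this ranking only through the Muc2-high cells and so had to differ. The enteroendocrine marker Chga was at 0 UMIs in all 14 cells. The median depth was 49974 UMIs in Muc2-high cells and 27640 UMIs in the other control cells, and none of the 14 was among the doublets by rank.

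The single Muc2-high RSPO1-Fc cell had 7 Muc2 UMIs and shared part of these genes. It held 1059 Tff3 UMIs, or 4.96% of its UMIs, with 109 of Agr2, 29 of Fcgbp, 19 of Spink4, 6 of Spdef and 4 of Tff2. It also held 391 UMIs of Lyz1, 309 of Mmp7, 150 of Ang4 and 0 of Clca1 and Atoh1. The Paneth lectin gene Itln1, found in 11 of the 14 Muc2-high control cells, was at 0 UMIs in it. Its total of 21376 UMIs was close to the library's median. As a single cell it gives no spread.

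In RSPO1-Fc cells most of the Tff3 lay outside cells with Muc2. The Muc2-high cell held 9.54% of the library's Tff3 UMIs in the RSPO1-Fc library, and the 14 Muc2-high cells held 93.1% in the control library. Without these cells Tff3 was at 143 CPM in RSPO1-Fc cells and 3.05 CPM in control cells, 46.8-fold higher (40.7 to 54.0), against 3.63-fold with them. Of the 28 RSPO1-Fc cells with the most Tff3, 3 held a Muc2 UMI and 10 held at least 20 UMIs of the Paneth defensin Defa24, which 18 of all 2751 RSPO1-Fc cells (0.654%) did. For the 28 cells with the most Spink4 that number was 14, for Tff2 it was 1 and for Tff1 it was 0. Counts of 0 and 1 are near those of unrelated sets. In the top Tff2 cells Lyz1 was at 985 CPM against 83.3 CPM in the remaining cells, and Defa24 at 900 CPM against 313 CPM. The other Paneth markers were lower there. In the top Tff1 cells Defa22 was at 612 CPM against 239 CPM, and the other Paneth markers were lower. Where RSPO1-Fc cells did hold 1 to 4 Muc2 UMIs, Tff3 was at 892 CPM (20 of 20 cells) against 136 CPM in the 2730 cells with none, 6.56-fold higher (6.02 to 7.14), at median depths of 31670.5 and 23485.5 UMIs. That fold rests on 578 UMIs in the 20 cells, and its interval leaves out the spread between them. In control cells with 1 to 4 Muc2 UMIs Tff3 was found in 3 of 46 cells (6.52%), against 3.08% of the 1821 cells with none. The median depths were 36794.5 and 27462 UMIs. Its 52 UMIs in those 3 cells gave 24.4 CPM against 2.34 CPM, 10.4-fold higher (7.43 to 14.3). This fold rests on 3 cells and does not describe the 46 as a set, and its interval leaves out the spread between cells.

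Most pairs of the 10 genes were weakly correlated across cells in both libraries, with a median r of 0.03 in RSPO1-Fc cells and 0.06 in control cells. Correlations are Pearson's r of log2(UMIs per 10000 + 1) over 2751 RSPO1-Fc or 1881 control cells, which share a library and depth, so they are descriptions without a test. In RSPO1-Fc cells 0 of the 45 pairs were above 0.5, the highest being 0.44 for Muc2 and Spdef, which was 0.06 without the Muc2-high cell. In control cells 6 of 45 pairs were above 0.5, all among Muc2, Tff3, Spink4 and Spdef, the highest being 0.89 for Muc2 and Tff3 (0.81 after thinning, Spearman's rho 0.24). Without the 14 Muc2-high cells 2 pairs were above 0.5, and r was 0.27 for Muc2 and Tff3, 0.70 for Tff3 and Spdef and 0.65 for Tff3 and Spink4. With Muc2, control Agr2 and Fcgbp were each at 0.39, and Gkn3 was at −0.03.

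**Figure D5:**
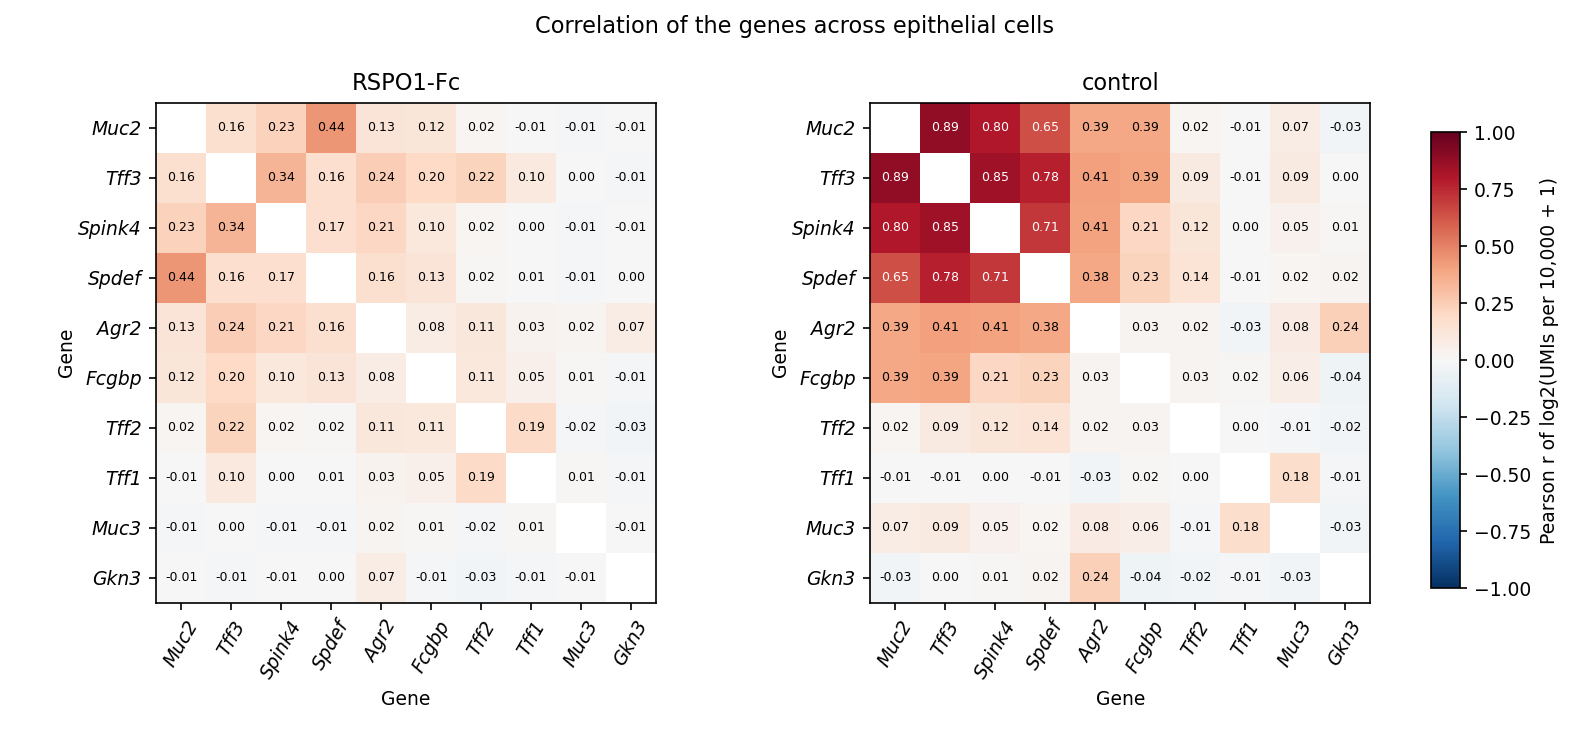
Pearson's r between the 10 genes across epithelial cells, RSPO1-Fc left and control right, on log2(UMIs per 10000 + 1). The block of Muc2, Tff3, Spink4 and Spdef is at 0.65 to 0.89 in control cells and at 0.16 to 0.44 in RSPO1-Fc cells.

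The 10 genes most correlated with Muc2 across control cells were Tff3, Sval1, the kallikrein gene Klk1, Spink4, the pancreatic colipase gene Clps, Ramp1, Ang4, the chemokine gene Ccl6, Spink1 and Spdef, with r of 0.89 to 0.65. Spink4 in RSPO1-Fc cells was most like Guca2a, which encodes guanylin, and the defensin gene Defa3 (0.59 each), and Tff3 there was most like Spink4 (0.34), Defa3 and Ang4 (0.31 each). Tff2 in RSPO1-Fc cells was most like Tff3 (0.22), and Tff1 was most like Tmsb4x (0.24), an actin-binding peptide gene found in every RSPO1-Fc cell. The gastric protease gene Ctse was among the 5 genes most like Tff1, at 0.19. Agr2 in control cells was most like the secreted lectin Reg4 (0.53) and Cldn2 (0.52), and Gkn3 was most like Cldn2 and Gsta3 (0.31 each).

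Of 10 further goblet products 4 had at least 20 CPM in either library. Of these 0 were at least 2-fold higher, beside 7.23% of all genes, and 3 were at least 2-fold lower, beside 18.7% of all genes (2 of 3 under TMM). With so few genes measured, the count of 0 is near the background. The 3 lower genes, Reg4, Guca2a and Ccl6, reached 20 CPM only in the control library, so their count is no support for a difference. Reg4 was at 5.76 CPM in RSPO1-Fc cells and 62.7 CPM in control cells, 10.9-fold lower (9.82 to 12.1). Guca2a was at 3.44 CPM in RSPO1-Fc cells and 23.3 CPM in control cells, and Ccl6 at 0.541 CPM in RSPO1-Fc cells and 22.1 CPM in control cells. Ang4 was at 22.7 CPM in RSPO1-Fc cells and 24.2 CPM in control cells. The 10 products summed to 34.7 CPM in RSPO1-Fc cells and 145 CPM in control cells. In control cells other than the 14 Muc2-high cells they summed to 52.4 CPM. In those other control cells Reg4 was at 31.4 CPM, Guca2a at 11.0 CPM and Ccl6 at 4.81 CPM, each still above its level in RSPO1-Fc cells. Ang4 was at 0.756 CPM there, below its level in RSPO1-Fc cells.

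Of 17 genes of mucin glycosylation and secretion, which build and export the gel, 8 were measured at 20 CPM. At the 2-fold limit 0 were higher, beside 7.23% of all genes, and this count of 0 is near the background. At that limit 3 were lower, beside 18.7% of all genes (2 of 7 under TMM). Of the lower genes only C1galt1 reached 20 CPM in both libraries, so their count is no support for a difference. C1galt1, which extends the first sugar of O-glycans, was at 32.2 CPM in RSPO1-Fc cells and 77.9 CPM in control cells, 2.42-fold lower and 1.91-fold lower under TMM. Galnt3, which starts O-glycans, was at 41.6 CPM in RSPO1-Fc cells and 49.3 CPM in control cells, and was 1.07-fold higher under TMM. The membrane mucin Muc13 was at 129 CPM in RSPO1-Fc cells and 107 CPM in control cells, and the gastric gland mucin Muc6 at 4.17 CPM in RSPO1-Fc cells and 31.1 CPM in control cells, 7.46-fold lower (6.60 to 8.46). Of 8 gastric genes 2 were measured: Ctse was 2.02-fold higher (1.94 to 2.10), at 110 CPM in RSPO1-Fc cells and 54.5 CPM in control cells, and Muc6 was lower.

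Of 10 regulators of the secretory lineage 5 were measured at 20 CPM. Of these 0 were 2-fold higher, beside 7.23% of all genes, which is near the background for so few. A further 3 were 2-fold lower, beside 18.7% (2 of 5 under TMM). Of the lower genes only Hes6 and Klf4 reached 20 CPM in both libraries, so the count is no support for a difference. Hes6 was at 141 CPM in RSPO1-Fc cells and 380 CPM in control cells, and Klf4, a factor of goblet-cell maturation, at 58.2 CPM in RSPO1-Fc cells and 130 CPM in control cells, 2.23-fold lower and 1.76-fold lower under TMM. Foxa1 was at 108 CPM in RSPO1-Fc cells and 105 CPM in control cells. Atoh1 had 42 UMIs in RSPO1-Fc cells and 25 UMIs in control cells, and 21 of the 25 control UMIs lay in the Muc2-high cells. Among close relatives of the members, the Ets factor gene Elf3 was at 346 CPM in RSPO1-Fc cells and 207 CPM in control cells, 1.67-fold higher and 2.12-fold higher under TMM. Ehf was at 122 CPM in RSPO1-Fc cells and 248 CPM in control cells, 2.03-fold lower and 1.60-fold lower under TMM. The Agr2 relative Agr3 was at 4.72 CPM in RSPO1-Fc cells and 2.63 CPM in control cells.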

How the data were processed

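Single-cell 3′ RNA libraries of 1 RSPO1-Fc and 1 control culture were counted by the authors, who deposited unscaled UMI counts for each gene in each barcode, empty ones included. Per the labels' protocols the v2 chemistry was used, reads were aligned to mm10 and 5000 cells were targeted per library. Cell Ranger 2.1.1 and Seurat 3.1.1 are listed per the submitters' processing notes, while the control matrix names software version 3.1.0 per the file headers. The tables list 27998 (RSPO1-Fc) and 31053 (control) genes, and library totals were 89437327 and 91675581 UMIs.

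Counts were summed over epithelial cells, scaled to CPM over the 27514 shared genes, and compared as ratios with conditional Clopper-Pearson intervals; levels have Poisson and shares Clopper-Pearson intervals at 95%. Log2 ratios add 1 CPM. A floor of 3 counts sets the limit for a share of 0. No p-value is given, since cells of 1 library are no replicates. The 10 members, the gene lists and the rules were chosen with earlier results of these data known. The sex and gut-segment genes were chosen likewise. Named were all members, up to 4 genes per list by CPM, the 10 genes most like Muc2 in control cells, the 5 most like each member with at least 500 UMIs in a library, and the 10 highest by fold in Muc2-high cells with at least 50 CPM; some of these are given as counts only. Scrublet, run through scanpy 1.11.5, scored doublets, which were kept except in an alternative that removed the highest 0.8% per 1000 barcodes; these were 61 RSPO1-Fc and 37 control epithelial cells, while the tool's own threshold marked 2 and 10. That alternative also removed cells over 20% mitochondrial UMIs, 22 and 16. TMM factors came from edgeR 4.0.16 in R 4.3.3. Scripts were tested on simulated data. Coordinates are from the GENCODE M21 annotation and promoter sequences from RefSeq. Columns of both tables were all used.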

Additional observations from a re-analysis of the deposited data

How the results depend on the processing

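No paired analysis was possible because each group held 1 library, and for the same reason no library could be left out. The counts over all genes moved with the settings: 985 genes were higher and 766 lower with TMM, 2577 higher and 7387 lower with no minimum level, and 821 higher and 2234 lower with a minimum of 5 CPM. With at least 1 Muc2 UMI in place of 5, the share of cells was 0.763% in the RSPO1-Fc library and 3.19% in the control library, and 51 genes were at least 4-fold higher in such control cells. With at least 10 Muc2 UMIs the RSPO1-Fc share was 0%. The cause was not tested. The other 46 values of this kind stayed within 1.5 times the main count or within the counting interval. With cells thinned to 5000 UMIs, 2 of the 10 genes were called higher and 3 lower, as Tff1 (18.5 CPM in RSPO1-Fc cells) and Gkn3 (19.2 CPM in control cells) came under 20 CPM. Of 80 log2 ratios of single genes under alternatives, 27 moved by more than their counting error and 0 changed sign. Low counts limit Muc2 and Spdef in RSPO1-Fc cells and Tff1 and Tff2 in control cells.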
